A study of Mus musculus with 28 samples.

Results

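Condensin, cohesin and separase genes are described here in mouse embryonic fibroblasts (MEFs) across 8 groups of arrays. Of 10 genes looked for, 9 were measured by 19 probe sets, against 45037 probe sets tested and 17097 genes named in all. They were chosen by name: every probe set whose single gene symbol was Smc2, Smc4, Ncapd2, Ncapg, Ncaph, Smc1a, Smc3, Rad21, Espl1 or Akap8. No probe set carried Smc1a as its single symbol in the annotation used, so that Smc1a was not analysed here. Each gene is given at its probe set with the highest mean over all 28 arrays, and the others are described after it.

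RNA came from primary MEFs at passage 2, taken at embryonic day 13.5 from WT mice, from p53-/- mice and from p66-/- mice, which lack the largest Shc1 protein. Each genotype gave 4 untreated arrays and 4 arrays of cells kept for 4 h in 400 μM H2O2, an oxidant that damages DNA. WT and p66-/- MEFs also gave 2 arrays each after 4 h in 0.25 μg/ml doxorubicin (Doxo), which poisons topoisomerase II and breaks DNA. No p53-/- MEFs were analysed after Doxo. The labels give the strain as C57Bl/6 for every array, whereas the methods of the study name sv129, and the labels call the arrays of a group biological replicates. Values are log2 levels after RMA, a normalization that gives all arrays a common distribution, so that a difference of 1 is a 2-fold change. Differences were tested with limma over all probe sets. The words rose, fell and called are kept for a p under 0.05 after Benjamini-Hochberg adjustment.

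Condensin and cohesin are rings built on a pair of long SMC ATPases. Condensin I (Smc2 and Smc4 with the kleisin Ncaph and the HEAT-repeat subunits Ncapd2 and Ncapg) folds chromatin into compact mitotic chromosomes, and cohesin (Smc1a and Smc3 closed by the kleisin Rad21) holds sister chromatids together from replication to anaphase. Separase, the product of Espl1, is the protease that cuts Rad21 to let the sisters part, and Akap8 is a nuclear anchor of protein kinase A that helps to bring condensin to chromatin. Many genes of this kind are transcribed mainly in G2 and mitosis, under promoters that often hold a CCAAT box and a cell cycle homology region (CHR).

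Promoter sequences are shown for 4 of these genes because their changes differed: Espl1 and Akap8 were the ones called after H2O2 in WT MEFs, and Ncapg and Ncapd2 are partners in one complex of which the first fell after Doxo and the second did not. Each is the 250 bases before the transcription start in RefSeq (GRCm38.p6), 5′ to 3′ on the strand of the gene. Capitals mark CCAAT, the CHR letters TTTGAA or TTCGAA, and the E2F letters TTTGGCGC, TTTCGCGC, TTTCCCGC or TTTGCCGC, searched on both strands. Every CCAAT in the 4 windows lay on the opposite strand and is therefore read as ATTGG.
Espl1 (chr15:102296043-102296292, plus strand): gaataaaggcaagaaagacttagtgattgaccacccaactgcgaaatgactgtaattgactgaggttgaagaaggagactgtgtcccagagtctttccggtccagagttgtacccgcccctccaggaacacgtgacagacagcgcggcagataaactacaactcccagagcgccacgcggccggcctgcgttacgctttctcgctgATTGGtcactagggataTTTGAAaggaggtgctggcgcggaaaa
Akap8 (chr17:32321239-32321488, minus strand): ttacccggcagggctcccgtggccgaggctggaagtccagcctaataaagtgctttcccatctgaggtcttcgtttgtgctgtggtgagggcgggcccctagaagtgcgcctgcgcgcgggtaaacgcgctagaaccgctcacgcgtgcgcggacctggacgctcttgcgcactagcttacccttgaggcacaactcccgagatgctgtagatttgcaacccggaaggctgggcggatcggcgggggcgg
Ncapg (chr5:45669675-45669924, plus strand): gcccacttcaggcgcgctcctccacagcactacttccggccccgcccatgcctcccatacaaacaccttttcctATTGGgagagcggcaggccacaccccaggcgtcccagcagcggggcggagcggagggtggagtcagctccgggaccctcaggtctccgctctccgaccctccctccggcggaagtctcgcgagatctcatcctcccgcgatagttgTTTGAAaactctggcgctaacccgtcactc
Ncapd2 (chr6:125191587-125191836, minus strand): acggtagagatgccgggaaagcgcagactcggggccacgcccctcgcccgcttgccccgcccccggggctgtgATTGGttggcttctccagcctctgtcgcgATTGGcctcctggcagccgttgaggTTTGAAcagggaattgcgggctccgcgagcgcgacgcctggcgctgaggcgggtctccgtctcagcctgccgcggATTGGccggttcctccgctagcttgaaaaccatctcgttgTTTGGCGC

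The Espl1 window held a CCAAT on the opposite strand, 44 to 40 bases before the start, and a TTTGAA 27 to 22 bases before it. The Ncapg window held one of each, 176 to 172 and 30 to 25 bases before the start. In the Ncapd2 window 3 CCAAT, 1 TTTGAA and 1 TTTGGCGC were found, the last ending at the base before the start. None of these letters stood in the Akap8 window. Of 8 genes with a window in the table, Smc2, Ncapd2, Ncapg and Espl1 held both a CCAAT and a CHR match, a combination found in 6.02% of 32851 promoter windows. CCAAT alone was in 33.8% of all windows, a CHR match in 17.1% and an E2F match in 1.86%. The Ncaph and Smc3 windows held none of the 3 motifs, the Smc1a window held a CCAAT alone, and Smc4 and Rad21 had no window there. The matches are letters only and do not show that a factor binds.

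Some properties of the arrays touch every value that follows. The treatment labels of the p53-/- arrays ran against known stress genes: Atf3, a stress transcription factor, differed by 2.85 after H2O2 in WT MEFs and by -2.90 in p53-/- MEFs, and of 1069 probe sets called in both, 99.7% had opposite signs by the labels. The gene lists of the study give the p53-/- response the opposite sign to the labels. Results of p53-/- arrays are therefore given as labelled and, beside them, with the untreated and H2O2 labels exchanged. Control probe sets split the arrays 3 ways. Those for Lys, a bacterial RNA that is added to each sample, averaged 5.27 on the 12 arrays of replicates 1 and 2, 3.59 on the 12 of replicates 3 and 4, and 4.19 on the 4 Doxo arrays. Every combination of genotype and H2O2 label was present in both of the first sets, but no untreated array stood in the Doxo set. Means of the 11 fibroblast markers over all arrays ran from 5.1 (Col1a2) to 12.9 (Vim), and those of the 4 endothelial markers from 3.09 (Tek) to 5.05 (Kdr), of the 4 epithelial ones from 3.13 (Cdh1) to 7.01 (Krt18) and of the 5 macrophage ones from 4.22 (Ptprc) to 9.75 (Lyz2, with single arrays from 5.13 to 11). Levels of different probe sets are not comparable, so that these ranges do not order the cell types. In bulk RNA, fewer dividing cells and less RNA per cell cannot be told apart.

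**Figure D1:**
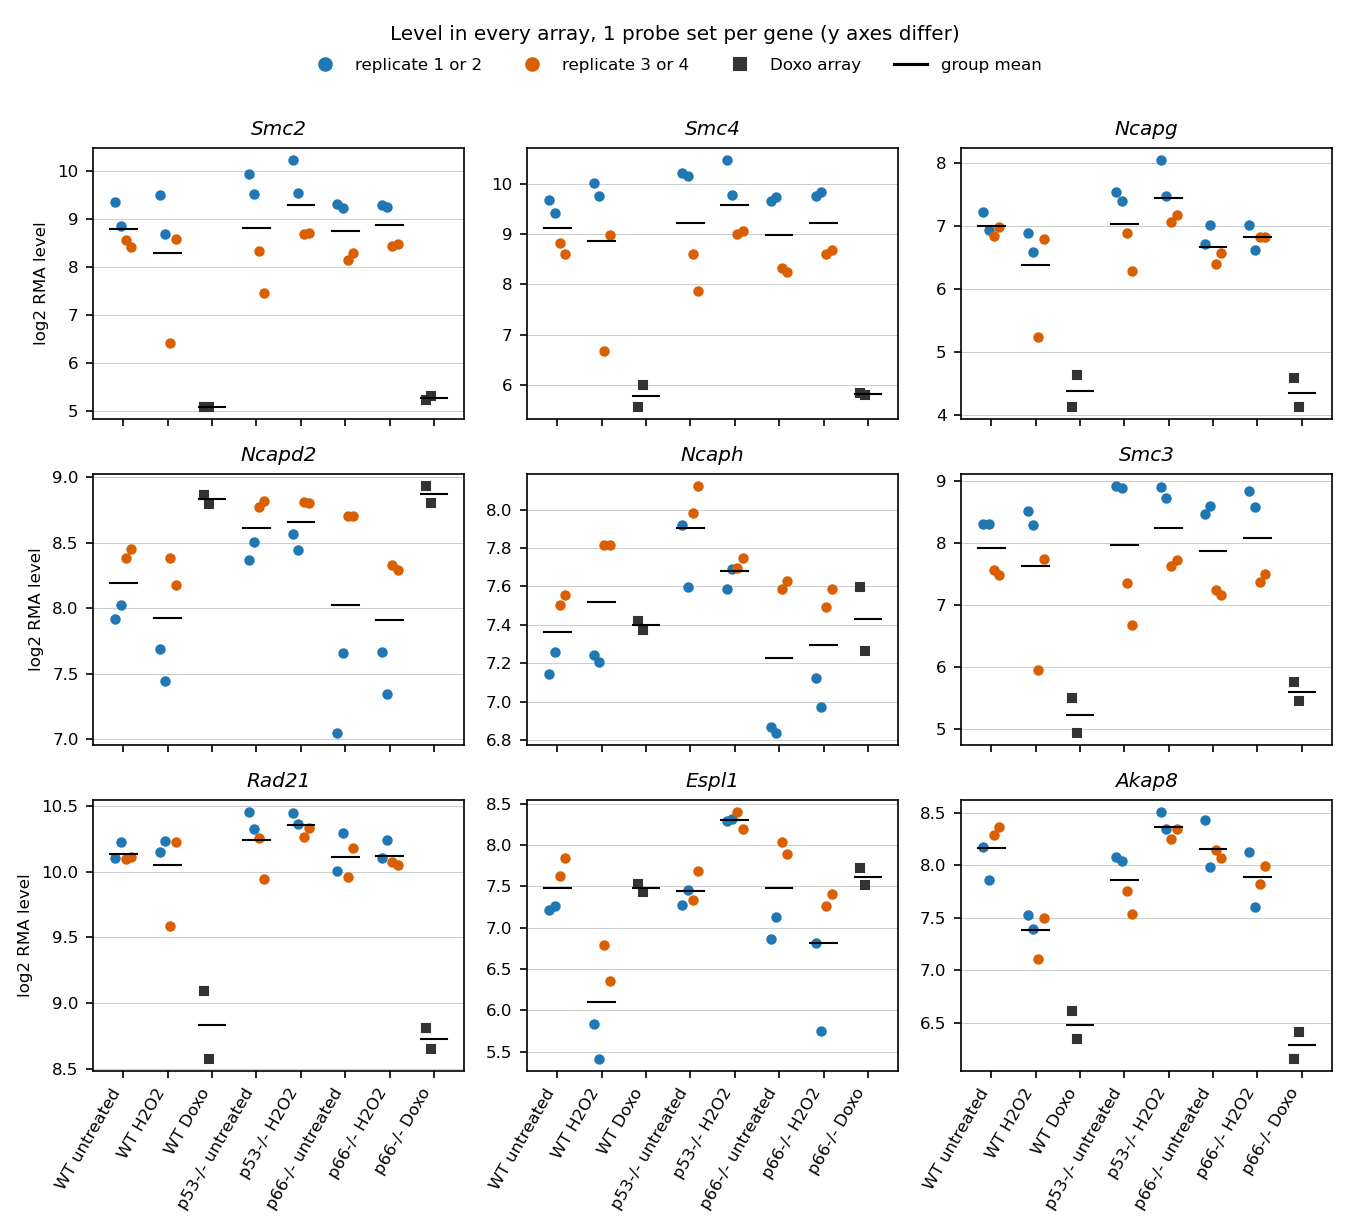
Log2 RMA level of each gene in every array, with a panel per gene and the 8 groups along the x axis. Blue points are replicates 1 and 2, orange points replicates 3 and 4, squares Doxo arrays and bars group means. Smc2, Smc4, Smc3 and Ncapg are lowest on the Doxo arrays, Espl1 and Akap8 are lower on the WT H2O2 arrays, and replicates 3 and 4 sit below replicates 1 and 2 for the SMC genes.

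H2O2 lowered the RNA of separase and of Akap8 in WT MEFs, and no other gene of the 9 passed the test. Espl1 read 7.21, 7.26, 7.63 and 7.84 in untreated replicates 1 to 4 and 5.83, 5.41, 6.79 and 6.36 after H2O2. All treated arrays lay below all untreated ones, by 0.84 to 1.85 within a replicate number. The fall of 1.38 on the log2 scale was 2.61-fold (standard error 0.31, limma adjusted p = 0.0096), and the two-sided exact permutation test gave p = 0.029, the smallest possible for 4 arrays against 4. Akap8 read 8.17, 7.86, 8.29 and 8.36 in untreated cells and 7.53, 7.39, 7.11 and 7.50 after H2O2. Again the groups did not overlap. Akap8 fell by 0.79 on the log2 scale, or 1.73-fold (standard error 0.14, limma adjusted p = 0.0015, two-sided exact permutation p = 0.029). Over all genes 4.95% were called in this comparison and 2.67% were lower, and groups were apart at 9.74% of genes. At 2 of 9 the share of these genes lay above that background, on a small count. The genes were chosen with earlier results of these data known, so that this share is a description and not a test. Both calls were lost when replicates 1 and 2 were fitted alone (Espl1 -1.61, adjusted p = 0.19; Akap8 -0.55, adjusted p = 0.44), and that of Espl1 when the WT groups were fitted alone (adjusted p = 0.07). With replicates 1 and 2 alone limma called 0 of 45037 probe sets, so that the loss was not particular to Espl1 and Akap8.

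The rings themselves gave no call after H2O2 in WT MEFs. For Smc2, Smc4, Smc3 and Ncapg most of the spread after H2O2 came from a single array, which was not low for Ncapd2 and Ncaph. Smc2 read 9.36, 8.86, 8.57 and 8.41 in untreated cells and 9.51, 8.69, 6.42 and 8.58 after H2O2. Smc4 went from 9.68, 9.42, 8.82 and 8.60 to 10.01, 9.77, 6.67 and 8.98, and Smc3 from 8.30, 8.30, 7.56 and 7.48 to 8.52, 8.29, 5.95 and 7.73. In each case replicate 3 of the H2O2 group was the lowest array, while the other 3 pairs differed by less than 0.4 in either direction. Ncapg was lower within all 4 replicate numbers (7.23, 6.94, 6.84 and 6.99 untreated against 6.89, 6.58, 5.24 and 6.8), with a mean difference of -0.62 (95% interval -1.24 to -0.00, adjusted p = 0.4). Rad21, the subunit that separase cuts, averaged 10.13 ± 0.06 (SD, n = 4) in untreated cells and 10.05 ± 0.31 after H2O2. Ncapd2 differed by -0.27 (95% interval -0.87 to 0.33) and Ncaph by 0.16 (-0.23 to 0.55). Without replicate 3 of both WT groups the difference of Smc2 went from -0.50 to 0.05, that of Smc4 from -0.27 to 0.35 and that of Smc3 from -0.29 to 0.15, whereas Espl1 and Akap8 were still called (-1.57, adjusted p = 0.013; -0.66, adjusted p = 0.027).

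**Figure D2:**
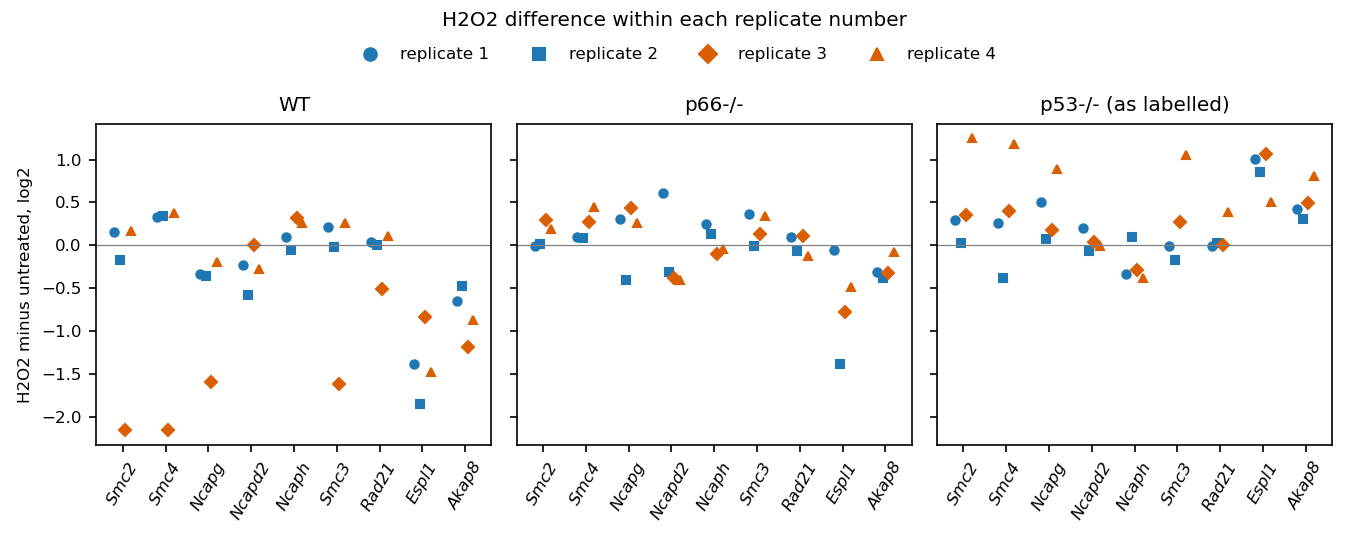
Log2 level after H2O2 minus the untreated level within each replicate number, for each gene (x axis) in WT, p66-/- and p53-/- MEFs by the labels. Espl1 and Akap8 are below 0 in all 4 replicates of WT and of p66-/- MEFs and above 0 in all 4 of p53-/- MEFs, and WT replicate 3 stands at -2.15 for both Smc2 and Smc4.

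In p66-/- MEFs none of the 9 genes was called after H2O2, where limma called only 0.0351% of all genes, and 1 of the 9, Espl1, had an unadjusted p under 0.05, as did 5.22% of all genes. At the thresholds of the study, which leave p unadjusted and ask for 1.5-fold, Espl1 would pass, against 1.23% of all genes. Espl1 read 6.87, 7.13, 8.04 and 7.89 in untreated and 6.82, 5.76, 7.27 and 7.41 in treated cells. It was lower within each replicate number, but the groups overlapped and the fit gave -0.67 (95% interval -1.31 to -0.04, adjusted p = 1). Akap8 read 8.44, 7.98, 8.15 and 8.07 against 8.12, 7.60, 7.83 and 7.99, likewise lower within each number (-0.27, 95% interval -0.57 to 0.02). The remaining genes differed by -0.12 to 0.23. Whether the H2O2 response differed between p66-/- and WT MEFs was tested by the interaction term, which called none of the 9 and 0% of all genes. Akap8 alone had an unadjusted p under 0.05, as did 3.52% of all genes. Its value was 0.71 for Espl1 (95% interval -0.18 to 1.61) and 0.51 for Akap8 (0.10 to 0.93, adjusted p = 1). The test thus did not separate the genotypes, and for both genes the interval leaves room for a difference as large as the WT response itself.

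In p53-/- MEFs Akap8 was called and Espl1 was not, and for both the labels set the direction. On the arrays labelled untreated, Espl1 read 7.28, 7.46, 7.34 and 7.69, and on those labelled H2O2 8.29, 8.31, 8.40 and 8.19. The groups were apart by more than the spread within either (two-sided exact permutation p = 0.029), although the fit did not call the difference of 0.86 (adjusted p = 0.13). Akap8 read 8.08, 8.04, 7.76 and 7.54 and then 8.51, 8.35, 8.25 and 8.35. By the labels Akap8 rose by 0.51 (standard error 0.14, limma adjusted p = 0.038), and with the labels exchanged it fell by 0.51. That was 1 of 9 genes, against 5.88% of all genes changed and 2.86% higher, and groups that did not overlap made 2 of 9 against 11.9%. The call of Akap8 was lost when any of 6 of the 8 arrays was left out, namely untreated replicates 3 and 4 or any of the H2O2 replicates (adjusted p up to 0.16). With the replicate number as a block, both Espl1 (adjusted p = 0.017) and Akap8 (adjusted p = 0.016) were called. The other 7 genes differed by -0.23 (Ncaph) to 0.48 (Smc2), and their groups overlapped.

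Whether these responses differed between p53-/- and WT MEFs depended wholly on the labels. As labelled, the interaction was 2.24 for Espl1 (standard error 0.43, limma adjusted p = 0.0011) and 1.30 for Akap8 (standard error 0.20, adjusted p = 9.6e-05), which made 2 of 9 genes against 13.5% of all changed and 6.73% higher. The replicate block added Ncapg (1.03, adjusted p = 0.044). With the p53-/- labels exchanged, the interaction was 0.53 for Espl1 (standard error 0.43, adjusted p = 1) and 0.28 for Akap8 (standard error 0.20, adjusted p = 1). None of the 9 genes was then called and none had an unadjusted p under 0.05, while 0.0409% of all genes were called. In the exchanged reading the H2O2 difference in p53-/- MEFs was -0.86 for Espl1, which was not called (adjusted p = 0.13), and -0.51 for Akap8, which was.

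On the Doxo arrays these genes differed on another scale, and no untreated array shared the set of these arrays. Of the 9, 6 fell in WT MEFs, where 43.1% of all genes were called and 16.1% were lower: the ATPases of condensin, its subunit Ncapg, both measured cohesin genes and Akap8. None rose. Smc2 stood at 5.08 on both Doxo arrays against 8.41 to 9.36 on the untreated ones, a difference of -3.72 (standard error 0.66, limma adjusted p = 0.00022), or 13.2-fold. Smc4 read 5.56 and 5.99 against 8.60 to 9.68, a difference of -3.36 (adjusted p = 0.0017). Ncapg read 4.13 and 4.64 against 6.84 to 7.23, a difference of -2.61 (adjusted p = 1.7e-05). For these 3 genes both Doxo arrays lay below every other array of WT MEFs. The nearest was H2O2 replicate 3, at 6.42 for Smc2, 6.67 for Smc4 and 5.24 for Ncapg. Within condensin I the other subunits did not follow: Ncapd2 read 8.87 and 8.79, above all 4 untreated arrays (7.91 to 8.46), with a difference of 0.64 (95% interval -0.10 to 1.38, adjusted p = 0.17), and Ncaph read 7.42 and 7.38 within the untreated range of 7.15 to 7.55. At 45% of all genes both WT Doxo arrays lay above all 4 untreated ones.

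In cohesin, Smc3 read 5.50 and 4.94 after Doxo against 7.48 to 8.30 in untreated WT MEFs, a difference of -2.69 (standard error 0.67, limma adjusted p = 0.0041). Rad21 read 9.10 and 8.58 against 10.09 to 10.23, which was -1.30 (standard error 0.16, adjusted p = 4.1e-06). The difference of the kleisin was smaller than that of its ATPase partner and had the smaller error, and the pair was not tested against each other. Akap8 read 6.61 and 6.35 against 7.86 to 8.36, a fall of 1.69 (standard error 0.17, adjusted p = 4.9e-07). Separase did not follow. Espl1 read 7.53 and 7.43 after Doxo, inside the untreated range of 7.21 to 7.84, and the difference was -0.01 (95% interval -0.79 to 0.77). With 2 arrays against 4 the exact permutation test cannot go below 0.067, which was its value for each of the 6 genes called. Over all genes the Doxo and untreated WT arrays were apart at 65.7%, with 20.7% lower, so that such separation was common. Leaving out WT Doxo replicate 2 ended the call of Smc3 (adjusted p = 0.067) and left the other 5.

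**Figure D3:**
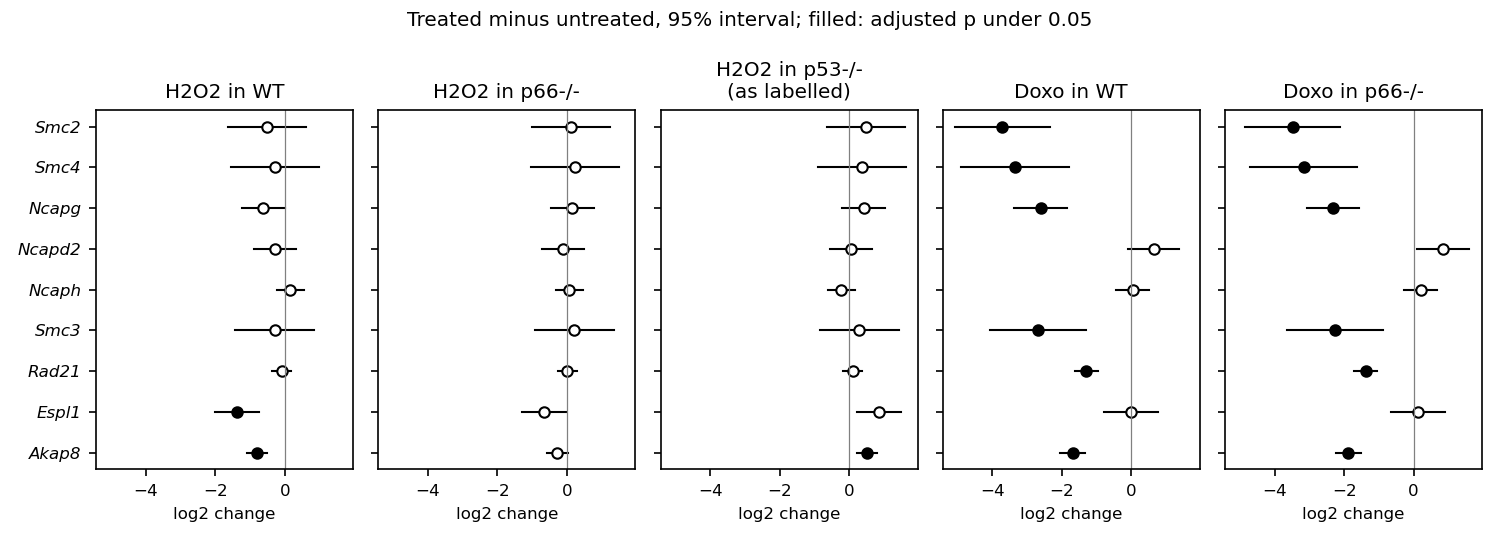
Log2 change of each gene, treated minus untreated, in the 5 treatment comparisons. Points are limma estimates, bars 95% intervals, and filled points have an adjusted p under 0.05. The filled points are Espl1 and Akap8 after H2O2 in WT, Akap8 in p53-/- MEFs as labelled, and Smc2, Smc4, Ncapg, Smc3, Rad21 and Akap8 after Doxo in both genotypes.

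In p66-/- MEFs Doxo gave the calls it gave in WT MEFs: the differences were -3.48 for Smc2, -3.17 for Smc4, -2.32 for Ncapg, -2.26 for Smc3, -1.38 for Rad21 and -1.88 for Akap8 (limma adjusted p from 1.6e-07 to 0.011), where 49.2% of all genes were called and 16.5% were lower. On the Doxo arrays Smc2 read 5.23 and 5.30, and Akap8 6.16 and 6.41. Ncapd2 read 8.94 and 8.80 against 7.05, 7.66, 8.71 and 8.70 in untreated cells (0.84, adjusted p = 0.063), and passed when untreated replicate 3 or 4 was left out. Without p66-/- Doxo replicate 2 the call of Smc3 was lost (-2.11, adjusted p = 0.087). Espl1 read 7.72 and 7.52 (0.13) and Ncaph 7.60 and 7.27 (0.20), both inside the untreated range. The Doxo response differed between p66-/- and WT MEFs at none of the 9 genes and at 0% of all genes by the limma interaction term, with an unadjusted p under 0.05 at none of the 9 and at 2% of all. Its values ran from -0.19 (Akap8, 95% interval -0.69 to 0.32) to 0.43 (Smc3, -1.54 to 2.40). The intervals of Akap8 and Rad21 (-0.55 to 0.38) were narrow beside their falls, and those of Smc2, Smc4 and Smc3 were not.

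The Doxo differences cannot be told apart from the array set, because no other array shared the set of the 4 Doxo arrays. The 24 other arrays show how these genes move between sets. In replicates 3 and 4 against 1 and 2, Smc2 differed by -1.19, Smc4 by -1.42, Smc3 by -1.33 and Ncapg by -0.47, and Ncapd2, Espl1 and Ncaph by 0.66, 0.60 and 0.42, all with a limma adjusted p of 0.014 or less. Thus 4 of 9 genes were lower and 3 higher, against 44.9% of all genes called between the sets, 14.1% lower and 30.7% higher. The genes that fell after Doxo included all 4 that were lower in the later replicate numbers. Rad21 (-0.15, limma adjusted p = 0.055) and Akap8 (-0.07, adjusted p = 0.5) were not called between the sets, and their Doxo falls were 1.30 and 1.69. The offset of the Doxo set itself could not be measured, since it held no untreated array. Across 17097 genes the set difference in p53-/- and p66-/- arrays and the Doxo difference in WT arrays, which share no array, had a Pearson r of 0.73 (genes are not independent replicates). Against untreated replicates 3 and 4 alone, a reference chosen after the values were seen, the 6 calls in WT MEFs remained (Smc2 -3.41, Smc4 -2.93, Smc3 -2.30, Ncapg -2.53), while in p66-/- MEFs Smc4 (-2.46, adjusted p = 0.056) and Smc3 (-1.59, adjusted p = 0.16) no longer passed. Markers also differed on these arrays: the mean of 11 fibroblast markers was 8.78 to 9.90 on untreated WT and 8.41 to 8.74 on WT Doxo arrays, and that of 5 macrophage markers 5.26 to 6.94 and 6.66 to 7.09, which overlapped. Without overlap, the epithelial mean was 4.87 to 5.35 and 5.58 to 5.84, the neuronal 5.43 to 5.70 and 5.87 to 6.06, and the endothelial 3.66 to 3.77 and 3.92 to 3.96. The erythroid and liver means were likewise higher without overlap, and the muscle mean overlapped. Of all single genes, 45% were higher and 20.7% lower without overlap on WT Doxo arrays, and the median difference was 0.19. Their part in the result was not tested.

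**Figure D4:**
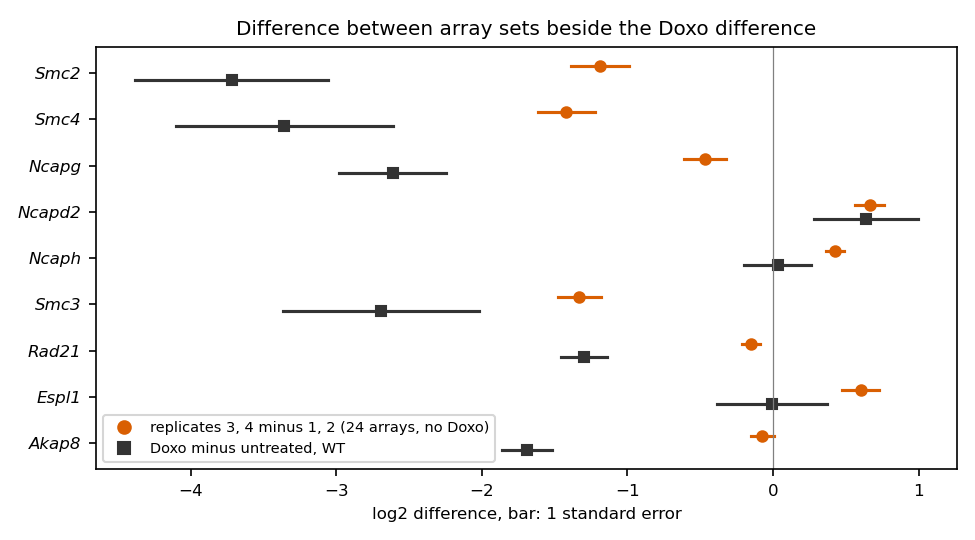
For each gene, the log2 difference between the array sets (replicates 3 and 4 minus 1 and 2, over 24 arrays without Doxo, circles) beside the Doxo difference in WT MEFs (squares), with bars of 1 standard error. Smc2, Smc4, Smc3 and Ncapg are negative on both, Ncapd2 is positive on both, and Rad21 and Akap8 lie near 0 between the sets and below 0 after Doxo.

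The genes that fell after Doxo were also compared by the length of the transcribed locus in RefSeq, since Doxo differences over all genes followed it. Among 8537 genes in the upper part of the levels the median Doxo difference in WT MEFs went from 0.47 for loci under 10 kb to -0.16 for 30 to 50 kb and -0.56 for those over 100 kb, with a Spearman rho of -0.39 across genes. The 9 genes span 17.6 kb (Akap8) to 49.1 kb (Smc2), so that they cover little of that range. Smc4 (29.9 kb), Ncaph (30.1 kb), Ncapg (30.7 kb) and Rad21 (30.9 kb) have nearly the same length, and their Doxo differences in WT MEFs were -3.36, 0.03, -2.61 and -1.30. Akap8, the shortest, fell by 1.69, and genes of 10 to 30 kb had a median of 0.20. The part of locus length in these differences was not tested, and they cannot be told apart from the array set.

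**Figure D5:**
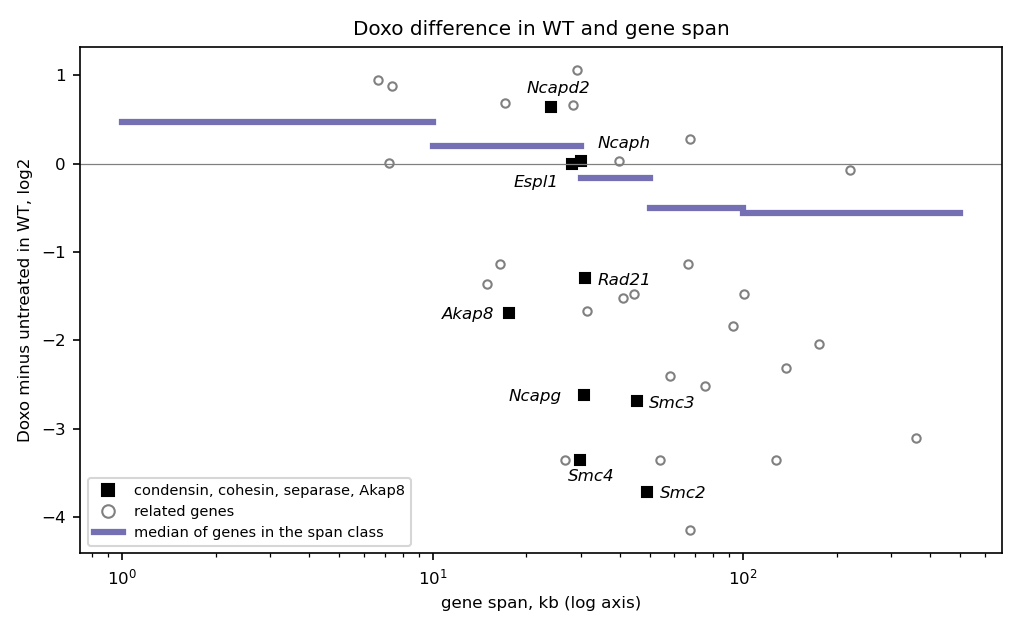
Doxo minus untreated log2 level in WT MEFs (y axis) against gene span in kb on a log axis, for the 9 genes (labelled squares) and 26 related genes (open circles). Purple lines are the medians of all well expressed genes in 5 classes of span. Ncaph, Smc4, Ncapg and Rad21 share a span near 30 kb and lie at 0.03, -3.36, -2.61 and -1.30.

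Genotype was compared over the untreated and H2O2 arrays together, which does not depend on how the p53-/- arrays were labelled. Espl1 was higher in p53-/- than in WT MEFs by 1.08 (standard error 0.22, limma adjusted p = 0.013), and was the only one of 9 genes called, against 1.56% of all genes changed and 0.608% higher. The other 8 genes were all on the same side, from 0.21 (Rad21) to 0.58 (Ncapd2), without passing. With the replicate number as a block, Ncapd2 (0.58, adjusted p = 0.0084), Ncaph (0.35, adjusted p = 0.012) and Akap8 (0.33, adjusted p = 0.042) were called as well. Which arrays carried the Espl1 difference turned on the labels: as labelled it was -0.04 between untreated and 2.20 between H2O2 arrays (adjusted p = 6.3e-05). With the p53-/- labels exchanged it was 0.81 between untreated (adjusted p = 0.77, 0.129% of all genes called) and 1.34 between H2O2 arrays (adjusted p = 0.048, 0.749% called). Between untreated arrays as labelled limma called none of the 9, against 6.29% of all genes. Ncaph (0.54, higher in p53-/- MEFs) and Akap8 (-0.31, lower) had an unadjusted p under 0.05, as did 19.1% of all genes. Between H2O2 arrays as labelled, Akap8 (0.98, adjusted p = 8.6e-05) and Ncapg (1.06, adjusted p = 0.028) were also higher in p53-/- MEFs. That made 3 of 9 against 10.9% of all genes changed and 5.99% higher. With the labels exchanged both calls were lost (Akap8 0.47, adjusted p = 0.2; Ncapg 0.65, adjusted p = 0.58).

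Between p66-/- and WT MEFs none of the 9 genes was called, and limma called 0% of all genes. The differences ran from -0.18 (Ncaph) to 0.35 (Espl1, 95% interval -0.09 to 0.80). Akap8, with 0.25 (95% interval 0.04 to 0.45, adjusted p = 0.51), was the only one with an unadjusted p under 0.05, as had 8.86% of all genes.

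Over the 8 groups, the genes thus had different orders. The mean of Espl1 was highest in p53-/- MEFs labelled H2O2 (8.30) and lowest in WT H2O2 (6.10). The first of these lay above all other arrays, while from p66-/- Doxo (7.62) down to WT H2O2 each group overlapped the next. Akap8 was lowest in p66-/- Doxo (6.28) and WT Doxo (6.48), which overlapped, and next in WT H2O2 (7.38), which was apart from both neighbours, though the lowest p53-/- untreated array (7.54) and the highest WT H2O2 array (7.53) nearly met. Smc2 was lowest in WT Doxo (5.08) and p66-/- Doxo (5.27), and its other 6 groups, from 8.30 to 9.30, overlapped from each one to the next. Ncapd2 had the reverse order at the top, with p66-/- Doxo (8.87) and WT Doxo (8.83) first, and no neighbouring groups apart.

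The other 10 probe sets of these genes had the sign of the main one after Doxo in both genotypes, but not always its call. In WT MEFs a second probe set of Smc4 (-3.42, limma adjusted p = 0.039), both other probe sets of Rad21 (-1.07 and -1.85) and that of Akap8 (-1.35) also fell. The 3 other probe sets of Smc2 (-0.85 to -2.77), 1 of Smc4 (-3.41), that of Ncapg (-1.12) and that of Smc3 (-0.41) did not pass, so that the size of the fall of Smc3 rests on its main probe set. After H2O2 in WT MEFs the second probe set of Akap8 read -0.44 (adjusted p = 0.16). Espl1, Ncapd2 and Ncaph had a single probe set each. In all, 2 of 19 probe sets were lower after H2O2 in WT MEFs against 1.81% of all probe sets lower, and 10 of 19 and 9 of 19 after Doxo in WT and p66-/- MEFs against 13% and 14.1% lower.

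Related genes were taken from a list of 26. After H2O2 in WT MEFs none of them was called, and 5 had an unadjusted p under 0.05, beside 15.5% of all genes. After Doxo in WT MEFs 14 fell and 4 rose, where 16.1% of all genes were lower and 27% higher. In p66-/- MEFs 14 fell and 3 rose, where 16.5% were lower and 32.6% higher. The values that follow are those of WT MEFs. In condensin II, which acts earlier in mitosis, Ncapd3 (-1.13) and Ncapg2 (-2.40) fell while the kleisin Ncaph2 rose (0.69). Of 13 partners and regulators of cohesin 7 fell: the subunits Stag1 (-3.11) and Stag2 (-3.35), the ring regulators Pds5a (-1.84) and Pds5b (-2.31), the releasing factor Wapl (-2.52), and the centromere protectors Sgo1 (-1.13) and Sgo2a (-1.52). Mau2, a partner of the cohesin loader, rose (0.67). The ATPases of the third SMC complex, Smc5 (-4.15) and Smc6 (-3.35), fell as Smc2, Smc4 and Smc3 did. Top2a (-1.67), Kif4 (-1.47) and Mki67 (-3.35), listed as genes of mitotic chromosomes, fell as well. Pttg1, securin, the inhibitor of separase, differed by 0.00, and Akap8l, the relative of Akap8, rose (1.06) where Akap8 fell. The median of the 26 was -1.48 and that of the 9 genes -1.69, beside 0.19 over all genes. The set difference described above bears on these genes as on the 9.

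A list of 18 genes of G2 and mitosis gave the frame for Espl1 and Akap8. After H2O2 in WT MEFs its median was -0.55, and its genes ran from -1.15 to -0.19. None was called by limma, against 4.95% of all genes, and 8 of the 18 had an unadjusted p under 0.05, against 15.5% of all genes. Among the 26 related genes the proliferation marker Mki67 differed by -1.42 (adjusted p = 0.13), about as much as Espl1 (-1.38). Espl1 was not tested against either list. The mean of the list was 8.54 to 8.83 on untreated and 7.71 to 8.35 on H2O2 arrays of WT MEFs. After Doxo the median was -0.23 in WT MEFs, with 6 of 18 lower against 16.1% of all genes, and 0.12 in p66-/- MEFs, with 4 of 18 lower against 16.5%. The mean of the list was 7.96 to 8.02 on WT Doxo arrays. In p66-/- MEFs it was 8.06 to 8.80 on untreated and 8.09 to 8.12 on Doxo arrays. For 17 genes of G1-S and replication the medians were -0.09 after H2O2 and 0.40 after Doxo.

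Over the 28 arrays the 9 genes followed more than one course. Smc2 and Smc4 had a Pearson r of 0.99 with each other, and of 0.97 and 0.98 with Smc3 and 0.97 and 0.94 with Ncapg, and these values were 0.97, 0.96, 0.98, 0.88 and 0.81 over the 24 arrays without Doxo. Ncapd2 and Ncaph had an r of 0.73 with each other but -0.52 and -0.12 with Smc2, their partner in the ring. Espl1 had an r of 0.74 with Ncapd2 and -0.12 with Smc2. Espl1 and Akap8 had an r of 0.24 over all arrays and of 0.70 without the Doxo arrays. The arrays share treatment, array set and normalization, and these values are a description.

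The genes outside the 9 with the course most like Espl1 over the 28 arrays were Plk1 (Pearson r of 0.955), Tacc3 (0.938), Spag5 (0.937), Ddx11 (0.933) and Ccna2 (0.923). For the mean of the 5 condensin I genes they were Bub1 (0.987), Shcbp1 (0.986), Plk4 (0.981), Chek1 (0.98) and Kif11 (0.976). That mean does not give the course of Ncapd2 and Ncaph, which had an r of -0.525 and -0.124 with Smc2. For the mean of Smc3 and Rad21 they were Cbx3 (0.993), Rdx (0.989), B230308N11Rik (0.988), Atf2 (0.988) and Hccs (0.987). For Akap8 they were Cep55 (0.969), Nup160 (0.967), Ppat (0.965), Mis12 (0.961) and Lbr (0.961).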

How the data were processed

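RNA of 28 samples was hybridized to Affymetrix MG-430 PM strip arrays. The authors normalized them with RMA in Partek 6.5, per the submitters' processing notes, and the values as deposited are log2 levels (1.953 to 13.47, array medians 4.353 to 4.464). Whether arrays were normalized together is not given in the sources used here. No further transformation or filter was applied. Of 45141 probe sets 104 controls were left out. Of the 45037 tested, 28898 carried 1 gene symbol in the platform annotation, 551 several and 15588 none. Arrays have no depth, and their number limits the precision.

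limma 3.58.1 in R 4.3.3 fitted 8 group means over all 28 arrays, moderated the spread, and tested treated against untreated cells of a genotype, genotypes over untreated and H2O2 arrays together, and interactions. P-values were adjusted by Benjamini-Hochberg over all probe sets. Single values were also compared by two-sided exact permutation. The fit was tested on simulated arrays with independent noise, which held no array sets and no pairing, so that the effect of these was not covered. Members and gene lists were chosen with earlier results of these data known. Named genes were the members at their probe set of highest mean, most of the listed relatives called after Doxo in WT MEFs, and the 5 genes of highest Pearson r with each course.

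Replicate numbers, given in the labels, were checked for pairing: deviations from group means correlated at 0.51 to 0.75 between H2O2 and untreated arrays of the same number, which pairs them, and at -0.077 to 0.047 for Doxo, which does not. The exceptions in rank were replicates 3 and 4 of p66-/- MEFs, each of which had a higher r with another number. Alternatives were the replicate block, the array set as a block, each array set alone, exchanged p53-/- labels, the compared groups alone, a further quantile normalization, leaving out the lowest 40%, the study's thresholds (unadjusted p under 0.05 and 1.5-fold), the methods' t-test, any probe set of a gene, and leaving out each array. A reference of untreated replicates 1 and 2 or 3 and 4 for Doxo, and leaving out replicate 3 of both WT groups, were added after the values were seen. Promoter and gene spans came from RefSeq tables of GRCm38.p6 (16936 of 17097 genes matched); motifs were searched with Python.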

Additional observations from a re-analysis of the deposited data

Results flagged for a closer look

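Of 54 groups of 4 arrays, 1 for each gene and group, 2 held an array that stood apart from the other 3 by more than Dixon's 95% limit, which chance gives in about 1 in 20 groups. Both were of Rad21. Untreated WT replicate 2 read 10.2 where the others read 10.1, a gap that is small in size. WT H2O2 replicate 3 read 9.59 where the others read 10.1 to 10.2, and the same array was the lowest of its group for Smc2, Smc4, Smc3, Ncapg and Akap8. The H2O2 response by the labels differed between p53-/- and WT MEFs by the limma interaction term for Espl1 (2.24, adjusted p = 0.0011) and Akap8 (1.3, adjusted p = 9.6e-05), and with the p53-/- labels exchanged it did not pass for either (adjusted p = 1).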

How the results depend on the processing

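Of 10 counts of member genes, the 2 after H2O2 in WT MEFs became 1 with the compared groups alone and 0 with replicates 1 and 2 alone or with the methods' t-test after Benjamini-Hochberg adjustment. The 1 after H2O2 in p53-/- MEFs became 2 with the replicate block, with the array set as a block and with replicates 3 and 4 alone, 0 with replicates 1 and 2 alone, and 1 in the other direction with the labels exchanged (Akap8 -0.508). The 0 after H2O2 in p66-/- MEFs became 1 (Espl1) at the study's thresholds. The 1 between p53-/- and WT MEFs became 4 with the replicate block, 3 with the array set as a block, 4 with replicates 1 and 2 alone, 2 with replicates 3 and 4 alone, 0 with untreated arrays alone (Espl1 -0.0432) and 3 with H2O2 arrays alone. The 2 whose H2O2 response differed between p53-/- and WT MEFs became 1 with replicates 1 and 2 alone and 0 with the labels exchanged. Leaving out each array gave 0 to 1 after H2O2 in p53-/- MEFs, 5 to 6 after Doxo in WT and 5 to 7 in p66-/- MEFs, and left the other counts as they were. The replicate block changed no other count by over 1.5 times, but it raised those after Doxo from 6 to 7 in WT (Ncapd2) and from 6 to 8 in p66-/- MEFs (Ncapd2 and Ncaph), where numbers do not pair the arrays, and the interaction count from 2 to 3 (Ncapg). With this block the share of all probe sets called after Doxo went from 35% to 51.2% in WT and from 40.7% to 55.6% in p66-/- MEFs. Over all probe sets, calls after H2O2 in WT MEFs numbered 1650 in the fit reported, 3131 with the replicate block, 2852 with the array set as a block, 2969 with replicates 3 and 4 alone, 789 with the compared groups alone and 0 with replicates 1 and 2 alone, and the methods' t-test gave 1703 at the study's thresholds and 225 after adjustment. With the replicate block the calls over all probe sets went from 2054 to 4129 after H2O2 in p53-/- MEFs, from 470 to 1906 between p53-/- and WT MEFs and from 4866 to 7781 for the interaction, and with replicates 1 and 2 alone they were 0, 920 and 619. After Doxo they went from 15752 to 10166 in WT and from 18335 to 8135 in p66-/- MEFs with untreated replicates 3 and 4 as the reference, and to 12969 and 19285 with replicates 1 and 2. These settings, chosen after seeing the data, gave 6 and 4 member genes with replicates 3 and 4, and 7 and 8 with replicates 1 and 2 (Ncapd2 in both genotypes and Ncaph in p66-/- MEFs added). Why a count moved was not tested. With 2 Doxo arrays per genotype, all in a set of their own, no setting separates treatment from set.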
